A study of Homo sapiens with 8 samples.

Results

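The genes described here are the 193 that the study's authors list as changed by acetylated brazilin in MDA-MB-231 cells, out of 2998 different genes listed in the series for any compound. All rows of the authors' deposited table for that compound are included, and the 3 deposited tables hold 2885, 193 and 11 genes for unmodified, acetylated and methylated brazilin. MDA-MB-231 is a widely used triple-negative breast cancer line of human origin, and brazilin is the polyphenol of sappanwood and brazilwood from which a red dye forms. In the acetylated derivative, acetyl groups are attached to the molecule, and the labels do not say at which positions.

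The comparison rests on 2 samples of untreated cells, cultured for 48 h without a compound, and 2 samples given acetylated brazilin at 20 µM for 48 h, present from seeding and replaced every day. Unmodified brazilin, at the same dose and time, also had 2 samples and was compared by the authors with the same untreated cells. All cells grew in high-glucose Dulbecco's medium with 10% serum, and the labels do not say whether the untreated cells received a solvent. For each gene the deposited table gives the mean of each group in FPKM (fragments scaled by transcript length and library size), a q-value and a log2 fold change. Because values per sample and read totals are missing from it, the depth is unknown, no standard deviation can be given, and overlap between samples of different groups cannot be seen. No label states whether the samples of 1 group were separate cultures, and the spread behind the q-values may therefore be technical. Unless another source is named, FPKM and q-values are those of the authors' deposited table, and log2 ratios were recomputed as the log2 of the treated over the untreated FPKM mean. Where an interval is given, it is a 95% interval of the deposited log2 fold change, with an error derived from the q-value that bounds the true error from above if the test was an unshrunken Wald test.

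Cells meet electrophilic and oxidizing compounds with a set of genes controlled largely by the transcription factor NRF2. KEAP1 normally marks NRF2 for degradation, and modified KEAP1 lets NRF2 accumulate and act with small MAF proteins on antioxidant response elements, whose core letters are TGACNNNGC. Its known targets degrade heme, store iron, make glutathione and supply NADPH. HMOX1 is also repressed by BACH1, which heme itself releases from DNA, and ferritin is controlled further at the level of translation by iron.

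Promoters were searched for that core because 8 of 9 listed NRF2 targets were higher. RefSeq sequences of GRCh38.p14, from 250 bases before to 50 after a gene's start, were found for 149 of the 193 genes (204 windows, since some genes have several starts), but not for HMOX1 or FTH1. TGACNNNGC on either strand occurred in 32 of the 204 windows (15.7%), against 13.3% of all 35116 windows in the table. It was present in 26 of 129 windows of higher genes (20.2%) and in 6 of 75 windows of lower genes (8.0%). Windows of the same gene can overlap and repeat a site. Counted by gene, 24 of 93 higher and 5 of 56 lower genes had a match, against 4384 of all 27305 genes with a window. Of the 6 listed NRF2 targets with a window, 2 had a match. These shares describe letters and do not show a bound site. Higher and lower genes also differ in GC content, as given below, and its part in these shares was not tested. The windows printed are those of the 2 listed NRF2 targets with a match (GCLM and PIR), of 3 other higher genes, FBXO30, UNKL and TNFSF18, and of 3 lower genes, IL1A, TNFRSF9 and ITGA1, chosen after their values were seen to show the letters in both directions. They run 5′ to 3′ on the gene's strand, with the matching letters in capitals, and all but that of PIR lie before the start. For UNKL, the start used lies inside the gene, which spans chr16:1363205-1414704.
GCLM (chr1:93909431-93909504, minus strand, match 34 to 26 bases before the start): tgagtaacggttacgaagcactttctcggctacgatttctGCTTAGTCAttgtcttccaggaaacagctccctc
PIR (chrX:15493289-15493317, minus strand, match 26 to 34 bases after the start): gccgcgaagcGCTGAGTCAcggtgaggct
FBXO30 (chr6:145814854-145814942, minus strand, match 107 to 99 bases before the start): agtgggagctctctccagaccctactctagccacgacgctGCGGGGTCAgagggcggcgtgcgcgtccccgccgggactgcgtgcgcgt
UNKL (chr16:1379690-1379778, minus strand, match 86 to 78 bases before the start): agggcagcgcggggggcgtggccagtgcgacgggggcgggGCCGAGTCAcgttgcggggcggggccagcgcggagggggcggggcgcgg
TNFSF18 (chr1:173050942-173051001, minus strand, match 20 to 12 bases before the start): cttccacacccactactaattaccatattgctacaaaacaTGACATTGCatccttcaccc
IL1A (chr2:112784521-112784609, minus strand, match 76 to 68 bases before the start): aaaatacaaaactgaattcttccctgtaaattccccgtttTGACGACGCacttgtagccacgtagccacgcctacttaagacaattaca
TNFRSF9 (chr1:7940840-7940925, minus strand, match 46 to 38 bases before the start): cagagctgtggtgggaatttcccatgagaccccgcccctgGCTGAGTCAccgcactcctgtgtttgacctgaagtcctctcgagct
ITGA1 (chr5:52787778-52787866, plus strand, match 98 to 90 bases before the start): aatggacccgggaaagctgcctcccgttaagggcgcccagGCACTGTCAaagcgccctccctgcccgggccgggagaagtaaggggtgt
PIR and TNFRSF9 hold the same letters GCTGAGTCA, which overlap the AP-1 motif TGANTCA, although PIR rose and TNFRSF9 fell. TGANTCA itself was found in 7.35% of the 204 windows and in 7.71% of all windows. Its share was 5.43% in windows of higher genes and 10.7% in windows of lower genes. Here too, the part of GC content was not tested.

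Acetylated brazilin changed few genes, and most of them by less than 2-fold. The table holds 187 protein-coding genes, 0.932% of the 20056 protein-coding genes of RefSeq, against 14.3% for unmodified brazilin, although the number of genes the authors tested is not known. Of the 193 genes, 120 rose (62.2%) and 73 fell (37.8%). At least 2-fold higher were 12 genes (6.22% of those listed) and at least 2-fold lower were 10 (5.18%). The other 108 higher genes lay between 0.42 and 0.97 on the log2 scale, and the other 63 lower genes between -0.98 and -0.42. The smallest absolute deposited log2 fold change was 0.50 and the largest q-value 0.0499, and genes that missed these limits have no value here. Taking for each gene the group with the higher mean, 59 of the 120 higher genes had 1 to 10 FPKM, 44 had 10 to 100 FPKM and 11 had more. Of the 73 lower genes, 38 had 1 to 10 FPKM, 23 had 10 to 100 FPKM and 7 had more.

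**Figure D1:**
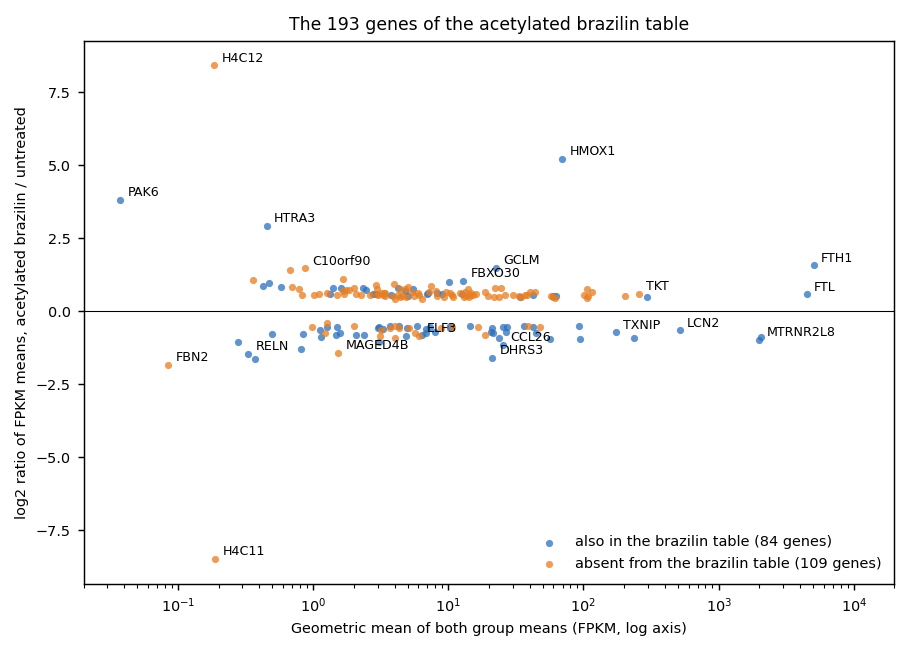
Each point is 1 of the 193 listed genes, with the geometric mean of its untreated and treated FPKM means on a log axis and the log2 ratio of those means on the vertical axis. Colours separate the 84 genes that the brazilin table also lists from the 109 that it does not, and HMOX1, at a log2 ratio of 5.21, stands far above all other genes of similar abundance.

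The heme and iron genes listed were all higher, and HMOX1 had the largest change of all listed genes without a mean at 0.01 FPKM. HMOX1, the inducible enzyme that opens the heme ring and releases iron, biliverdin and carbon monoxide, had 11.4 FPKM in untreated cells and 424 FPKM with acetylated brazilin. That is a 37.1-fold rise (log2 ratio 5.21, q-value listed at 0). FTH1, the ferritin heavy chain that oxidizes iron for storage, rose from 2929 to 8725 FPKM (log2 ratio 1.57, q-value listed at 0), and with that it had the highest treated FPKM mean of all listed genes. FTL, the ferritin light chain, rose from 3662 to 5501 FPKM (log2 ratio 0.59, q = 7.73e-36). The heavy chain was thus the less abundant ferritin transcript in untreated cells and the more abundant one after treatment, both values being per length of transcript. Of the exon bases of FTH1, 916 are shared with a gene annotated on the opposite strand, and without a stated strand such reads cannot be told apart. SLC48A1, which carries heme out of endosomes and lysosomes, rose from 6.41 to 10.4 FPKM (log2 ratio 0.70, q = 2.07e-07). These 4 were the only listed members of a heme, iron and ferritin list of 45 genes, and their median log2 ratio was 1.14, against 0.52 over all 193 genes.

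Over all protein-coding genes of RefSeq 0.932% were listed, and 62.2% of all listed genes were higher. These shares belong beside each list count given here. Of 49 genes in the list of NRF2 targets, 9 were listed, 8 higher and 1 lower, with a median log2 ratio of 0.75. The 4 heme and ferritin genes are among them. GCLM, the modifier subunit of the enzyme that starts glutathione synthesis, rose from 13.3 to 37.5 FPKM (log2 ratio 1.49, q = 7.08e-116, interval of the deposited value 1.35 to 1.61). Its catalytic partner GCLC was not listed. TKT, the transketolase of the pentose phosphate pathway, rose from 210.0 to 319 FPKM (log2 ratio 0.60, q = 3.73e-36). PIR, an iron-binding nuclear protein, went from 3.71 to 6.22 FPKM (log2 ratio 0.75, q = 0.00452). The exception was AKR1C1, a ketosteroid reductase, which fell from 1.57 to 0.94 FPKM (log2 ratio -0.74, q = 0.0165) and has a near-identical copy in AKR1C2.

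Other electron-transfer enzymes were also listed, in a group put together after the values were seen. NQO2, a flavin quinone reductase, rose from 34.9 to 54.6 FPKM (log2 ratio 0.65, q = 2.18e-13). POR, the reductase that feeds electrons to microsomal P450 enzymes and to heme oxygenase, rose from 30.6 to 45.4 FPKM (log2 ratio 0.57, q = 2.09e-12). ETHE1, a persulfide dioxygenase of mitochondria, rose by 0.49 and MTARC1, a mitochondrial amidoxime-reducing enzyme, by 0.79 on the log2 ratio scale. CYB561D2, a membrane cytochrome, rose by 0.54. DHRS3 went the other way. This retinaldehyde reductase, which turns retinaldehyde back to retinol, fell from 36.6 to 12.2 FPKM (log2 ratio -1.59, q = 1.21e-75), the largest fall among genes whose larger mean reached 1 FPKM and whose smaller mean exceeded 0.01 FPKM. It was the 1 listed gene of 26 in the retinoid and vitamin D list. TXNIP, which binds and inhibits thioredoxin and restrains glucose uptake, fell from 224 to 136 FPKM (log2 ratio -0.72, q = 4.72e-59). PDK4, a kinase that shuts down pyruvate dehydrogenase, fell from 3.69 to 2.56 FPKM (q = 0.00171).

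From the list of NF-kB and cytokine genes 5 of 46 were listed, 1 higher and 4 lower, with a median log2 ratio of -0.80. IL1A and IL1B, which encode both forms of interleukin 1, fell from 24.9 to 14.2 FPKM (q = 2.96e-19) and from 46.2 to 32.3 FPKM (q = 4.06e-10). CCL26, an eosinophil-attracting chemokine, fell from 37.9 to 17.1 FPKM (log2 ratio -1.15, q = 7.97e-07). The chemokine gene CCL5 was the 1 that rose, from 1.91 to 3.19 FPKM, with a q-value of 0.0482 close to the limit. In the TNF superfamily, gathered after the values were seen, 3 of 4 listed genes were lower. TNFSF10, the death ligand TRAIL, fell from 8.77 to 5.27 FPKM (q = 3.68e-06), TNFSF15 from 3.15 to 1.8 FPKM (q = 1.10e-09) and the receptor gene TNFRSF9 from 1.47 to 1.1 FPKM (q = 0.0412). TNFSF18, the ligand of the receptor GITR, rose from 17 to 29.4 FPKM (log2 ratio 0.79, q = 7.47e-23). CTF1, a cytokine of the interleukin 6 family, went from 2.72 to 4.22 FPKM (q = 0.0215).

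**Figure D2:**
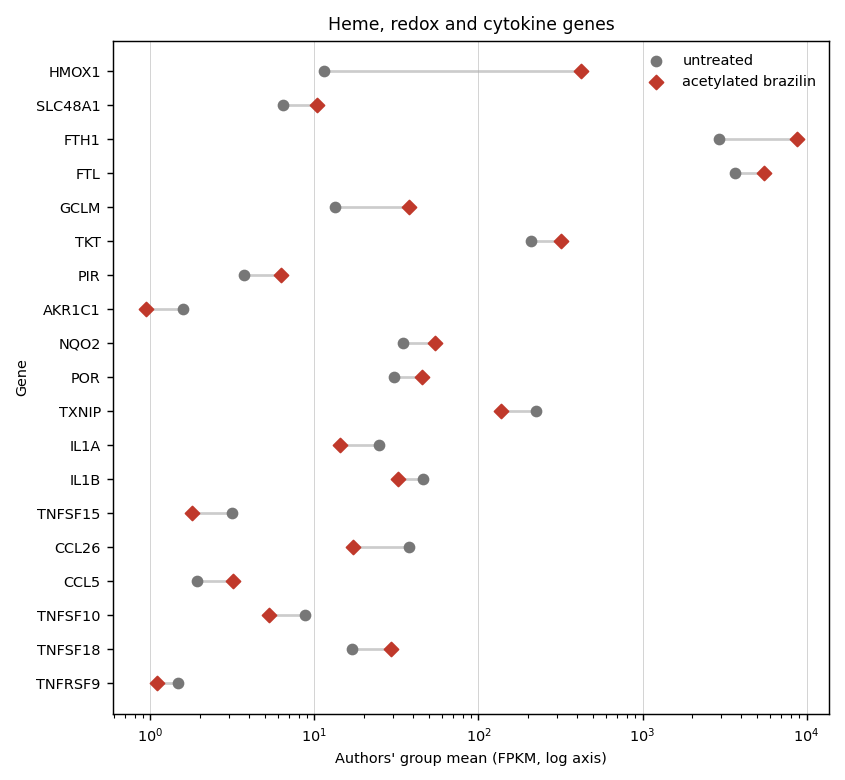
Horizontal positions are the authors' mean FPKM on a log axis in untreated cells (grey circles) and with acetylated brazilin (red diamonds) for 19 genes of heme, redox and cytokine function. HMOX1 spans from 11.4 to 424 FPKM, while the cytokine genes CCL26, IL1A and IL1B lie to the left of their untreated means.

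Several genes for secreted protease inhibitors and complement factors, brought together after their values were seen, fell. The cystatin genes CST1 and CST4, which encode inhibitors of cysteine proteases, fell from 130.2 to 67.8 FPKM (q = 0.00965) and from 27.8 to 16.6 FPKM (q = 7.45e-05). TIMP3, a matrix-bound inhibitor of metalloproteases, fell from 58 to 34.5 FPKM (log2 ratio -0.75, q = 1.40e-52), and TFPI2, a serine protease inhibitor, from 30.5 to 21.1 FPKM (q = 1.26e-11). Complement factors B and I were lower, CFB at 19.9 and 13.7 FPKM and CFI at 1.26 and 0.52 FPKM. CFB and CFI share 2249 and 1562 exon bases with other annotation on the same strand, so reads there cannot be told apart. The coding sequence of CFI is near-identical to that of another annotated gene. LCN2, a secreted lipocalin that binds iron-carrying siderophores, was far more abundant and fell from 650.1 to 413 FPKM (log2 ratio -0.65, q = 1.09e-41). HTRA3, a secreted serine protease, rose instead, from 0.165 to 1.25 FPKM (log2 ratio 2.93, q = 1.57e-10), and so did the membrane metalloprotease gene MMP17, from 1.7 to 2.58 FPKM (q = 0.028). The matrix proteolysis list had those 2 and TIMP3 as its 3 listed members out of 90.

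From the matrix and integrin list 3 of 112 genes were listed, and all 3 fell. ITGA1, the integrin alpha 1 chain of a collagen receptor, went from 34.2 to 21.1 FPKM (log2 ratio -0.70, q = 1.10e-08). LTBP3, which anchors latent TGF-beta in the matrix, went from 10.1 to 6.17 FPKM (q = 8.67e-16), and FBN2, a fibrillin gene of very low level, from 0.16 to 0.045 FPKM (q = 0.00275). TGFB2, the ligand TGF-beta 2, fell from 43.1 to 30.4 FPKM (q = 8.11e-17). CEMIP, needed for hyaluronan breakdown, fell from 7.42 to 4.38 FPKM (log2 ratio -0.76, q = 2.89e-18), and NEXN, an actin-binding protein gene, from 4.18 to 2.33 FPKM (log2 ratio -0.85, q = 7.59e-06). Of the 46 epithelial and luminal genes, LCN2 and ELF3 fell and CLDN3 rose. ELF3, an epithelial transcription factor gene, had 8.14 and 4.54 FPKM (q = 7.85e-15), and the tight junction gene CLDN3 had 2.13 and 3.98 FPKM (log2 ratio 0.90, q = 0.00521). The log2 ratio of FPKM means of ELF3 was -0.84, while the deposited log2 fold change was -1.08.

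Genes of G protein signalling were listed in both directions. RGS2 and RGS4, which switch off G alpha subunits, fell from 6.11 to 4.08 FPKM (q = 0.0191) and from 1.11 to 0.645 FPKM (q = 0.0441). The small GTPase gene GEM fell from 58 to 39.8 FPKM (q = 3.43e-14) and the G gamma subunit gene GNG2 from 4.39 to 3.08 FPKM (q = 0.00273). RAB43, a small GTPase gene, rose from 7.6 to 12.1 FPKM (log2 ratio 0.67, q = 2.16e-10), and RADIL, which encodes an effector of Rap GTPases, from 0.605 to 1.02 FPKM (q = 0.00712). RAB43 shares 3956 exon bases with other annotation on the same strand, so reads there cannot be told apart. SHH, the hedgehog ligand, was at 1.4 and 0.895 FPKM (q = 0.0131), and PORCN, the acyltransferase that makes Wnt proteins secretable, rose from 4.77 to 7.38 FPKM (q = 8.22e-04). Among neural adhesion genes, RELN, the extracellular protein reelin, fell from 0.545 to 0.2 FPKM (log2 ratio -1.45, q = 5.30e-09), NRP2, a semaphorin coreceptor, fell from 4.51 to 3.06 FPKM (q = 3.63e-08), and NRCAM rose from 0.435 to 0.77 FPKM (q = 0.00875).

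Several genes for long coiled-coil proteins of the Golgi, centrosome and spindle, and some of chromatin, fell. GOLGA4 and GCC2, golgins of the trans-Golgi network, fell from 33.1 to 22.6 FPKM (q = 1.02e-20) and from 5.18 to 3.63 FPKM (q = 3.79e-07). These golgin falls were joined by AKAP9. It is a scaffold of the centrosome and Golgi and fell from 8.43 to 5.47 FPKM (log2 ratio -0.62, q = 6.11e-20). The mitotic kinesin genes CENPE and KIF20B had log2 ratios of -0.54 and -0.51 and were the 2 listed of 50 genes of mitosis and G2/M, while CEP162 of the centrosome had a ratio of -0.55. The list of cilium, dynein arm and centrosome genes had 3 listed of 399, which were KIF20B, CEP162 and CCDC163. Of these, CCDC163 rose, from 4.225 to 7.205 FPKM (log2 ratio 0.77, q = 4.19e-06). ATRX, a chromatin remodeller, fell from 12.6 to 8.48 FPKM (q = 2.38e-19), the nuclear receptor corepressor gene NRIP1 from 8.45 to 4.83 FPKM (log2 ratio -0.81, q = 2.71e-24), and CREBRF from 10.8 to 7.18 FPKM (q = 6.34e-13). BICRA, a SWI/SNF subunit gene, rose from 2.83 to 4.09 FPKM (q = 1.94e-04). Apart from CCDC163, these genes were put together after their values were seen. The 6 lower Golgi, centrosome and spindle genes named have transcripts with median values of 37.3% GC and 7605 bases.

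Mitochondrial, secretory and transport genes were listed in both directions. Complex I subunit genes NDUFA3 and NDUFA7 rose from 31.5 to 45.8 FPKM (q = 2.28e-05) and from 50.7 to 70.9 FPKM (q = 2.74e-05). ATP5MK, a small subunit of the ATP synthase, was lower, at 327 and 172 FPKM (q = 4.29e-11), with a log2 ratio of -0.93 but a deposited log2 fold change of -0.63. These were the 3 listed of 209 genes of the mitochondrial ribosome and respiratory chain. TMEM258, a subunit of the oligosaccharyltransferase, rose from 171 to 243 FPKM (q = 7.86e-12) and ALG3, a mannosyltransferase of N-glycan assembly, from 13 to 19.7 FPKM (q = 1.06e-06). The 7 listed genes with TMEM symbols were all higher, by 0.45 to 0.75 on the log2 ratio scale. From the solute carrier list 10 of 363 were listed, 8 higher and 2 lower. Over all protein-coding genes 0.932% were listed, and of all listed genes 62.2% were higher. SLC16A13, of the monocarboxylate carrier family, rose from 2.88 to 5.51 FPKM (log2 ratio 0.94, q = 2.44e-05). The myo-inositol carrier gene SLC5A3 fell from 4.83 to 3.41 FPKM (q = 6.19e-10), and SLCO2A1, a prostaglandin carrier, was at 0.655 and 0.38 FPKM (q = 0.0347). Further solute carriers were SLC22A18, SLC22A31, SLC2A8, SLC15A3 and MFSD13A, which rose by 0.42 to 0.60, and SLC48A1. Among ion channel genes, KCND1 rose (log2 ratio 0.84, q = 0.0222) and GABRR2 fell (log2 ratio -0.52).

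Among regulators of transcription and protein turnover, FBXO30, an F-box gene of a ubiquitin ligase, rose from 9.02 to 18.5 FPKM (log2 ratio 1.04, q = 4.80e-46), and TRIML2 from 7.12 to 14.4 FPKM (log2 ratio 1.02, q = 1.58e-15). The ubiquitin ligase list had FBXO30 and KLHL17 as its 2 listed genes out of 437, and the zinc finger list had 4 of 615. Both shares lie below the 0.932% of all protein-coding genes that were listed. Among the zinc finger genes, ZFPM1, a GATA cofactor gene, rose from 1.15 to 2.45 FPKM (q = 5.88e-07). ZNF213 and ZNF414 rose by 0.57 and 0.44 on the log2 ratio scale, and ZNF114 fell from 5.53 to 2.96 FPKM (log2 ratio -0.90, q = 3.65e-07). UNKL, a zinc finger gene outside the list's naming pattern, rose from 5.49 to 10.0 FPKM (log2 ratio 0.87, q = 1.82e-17). Among the largest rises, C10orf90 (at 0.525 and 1.46 FPKM), the olfactory receptor gene OR7E24 (0.41 and 1.09 FPKM) and TUBB2B (1.06 and 1.87 FPKM) were all below 2 FPKM in both groups, and TUBB2B has a near-identical copy in TUBB2A. CDRT4 fell from 4.44 to 2.13 FPKM (log2 ratio -1.06, q = 1.25e-07), and ZC3H11B from 1.54 to 0.84 FPKM (log2 ratio -0.87, q = 1.26e-04). Of the exon bases of CDRT4, 2258 are shared with other annotation on the same strand, and such reads cannot be told apart.

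Further members outside these groups include enzymes and surface proteins. CH25H, which makes 25-hydroxycholesterol, rose from 1.79 to 3.08 FPKM (log2 ratio 0.78, q = 0.0139), and ACACB, the acetyl-CoA carboxylase linked to mitochondria, was the 1 listed gene of 48 in the lipid and sterol list, with a log2 ratio of 0.58. GPC1, a heparan sulfate proteoglycan anchored to the membrane, rose from 3.23 to 5.55 FPKM (q = 2.43e-08). GREB1, known as an estrogen-induced gene, was at 0.315 and 0.57 FPKM (q = 0.0263), both low. ADAMTS17 and ADAMTSL5 were the 2 listed of 44 genes of the ADAM and ADAMTS list, with log2 ratios of 0.97 and 0.59. XAGE1B, a cancer-testis antigen gene with near-identical copies, rose from 249 to 350.0 FPKM (q = 4.05e-10). On the lower side, OLAH, a thioesterase that releases medium-chain fatty acids, fell from 4.03 to 2.64 FPKM (q = 0.025), and the kinase gene DAPK2 from 2.79 to 1.57 FPKM (log2 ratio -0.83, q = 0.00177). ADGRF1, an adhesion G protein-coupled receptor, fell from 51 to 34.9 FPKM (q = 1.93e-19), and FAM3C, a secreted protein gene, from 109.9 to 78.4 FPKM (q = 6.93e-16). These last 2 were among the more abundant lower genes.

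In 15 of the 38 lists no gene was listed. They include the integrated stress and unfolded protein response (44 genes), heat shock and proteasome (34), p53 targets, growth arrest and death (45), DNA replication (47), immediate early genes (33), dual-specificity phosphatases and MAPK feedback (35), interferon response (40), hypoxia and glycolysis (40) and metallothioneins (35). No leukocyte marker of 19 and no endothelial, fibroblast or fat marker of 18 was listed either. Since only 0.932% of all protein-coding genes were listed, an empty list of such a size is no result about its genes. A gene outside the table missed at least 1 criterion and its level is not known, so neither the identity of the cells nor the presence of others can be read from this table.

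Members with copies need separate reading. H4C11 and H4C12, which encode the same histone H4 protein, were listed in opposite directions, at 3.57 and 0.01 FPKM and at 0.01 and 3.42 FPKM. Each has the other as a near-identical copy, and 0.01 FPKM is the lowest value in the table, so no fold change is given. Summed over the pair the values were 3.58 FPKM in untreated and 3.43 FPKM in treated cells, a log2 ratio of -0.06. MAGED4 rose from 3.75 to 6.71 FPKM while its near-identical copy MAGED4B fell from 2.52 to 0.935 FPKM, and their sum went from 6.27 to 7.65 FPKM. PAK6, which cannot be told apart from the readthrough gene BUB1B-PAK6 by coding sequence, was at 0.01 FPKM in untreated and at 0.14 FPKM in treated cells. GOLGA6C and GOLGA8G, golgin genes with near-identical copies, were at 0.65 and 0.21 FPKM (q = 5.86e-05) and at 0.4 and 0.195 FPKM (q = 0.0321), and NPIPA7 and NPIPB13, of a family repeated on chromosome 16, had log2 ratios of 0.62 and 0.57. In all, 22 of the 193 genes had a copy with at least 98% identity over at least 80% of the coding length or belong to the MTRNR2L genes, and 57 shared at least 100 exon bases with another annotated gene. Some of the 22, such as PAK6, CFI and UPK3BL1, also share exon bases with other annotation on the same strand. The copy counted for them may therefore be an annotation of the same locus. The 6 listed MTRNR2L genes, nuclear copies of part of the mitochondrial genome's large ribosomal RNA, all fell, from 5770 FPKM in sum to 3028 FPKM (log2 ratio -0.93). Reads can be assigned to any of these copies or to the mitochondrial transcript, and their part in these values was not tested.

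Direction went with the composition of the transcript. Among 118 higher genes with a GENCODE transcript the median GC content was 59.96% (quartiles 55.1% and 63.6%), and among 70 lower genes it was 43.8% (quartiles 39.1% and 51.8%), with a median of 49.96% over 19701 coding genes. All coding genes were divided into 3 equal classes by GC content. In the highest class 88 of 98 listed genes rose (89.8%), in the middle class 23 of 45 (51.1%) and in the lowest class 7 of 45 (15.6%). By transcript length, 53 of 72 listed genes in the shortest class rose (73.6%) and 25 of 55 in the longest (45.5%). On chromosomes 16 and 19 together, picked out after the values were seen, 24 of 25 listed genes were higher, against 62.2% of all 193. On chromosomes 5 and 21 all listed genes, 4 and 3, were lower. GC contents of the genes at least 2-fold higher ran from 34.8% for FBXO30 to 69.0% for ZFPM1. Among them were 37.3% for GCLM, 50.1% for FTH1, 58.1% for HMOX1 and 64.8% for HTRA3. The part that RNA quality or library preparation has in this difference was not tested.

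**Figure D3:**
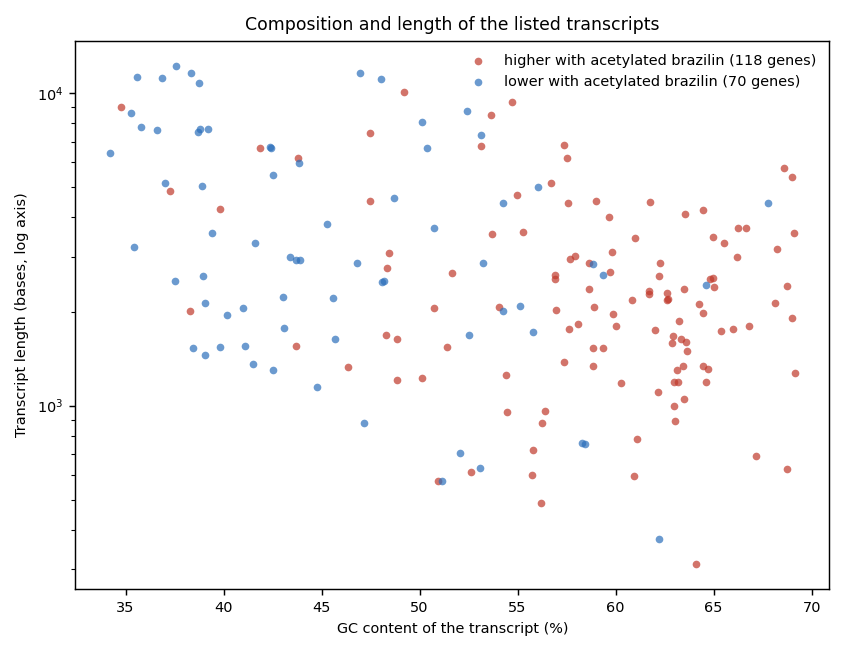
Each point is a listed gene with a GENCODE transcript, placed by GC content in percent and by transcript length in bases on a log axis, red if higher and blue if lower with acetylated brazilin. Red points gather to the right and blue points to the left, with median GC contents of 59.96% and 43.8%.

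The second question was which listed genes the table for unmodified brazilin does not hold. By gene ID, 109 of the 193 genes (56.5%) were absent from it, of which 87 were higher (79.8%) and 22 lower. Of the 84 genes listed for both compounds, 33 were higher (39.3%) and 51 lower with acetylated brazilin. Absent genes have no value for brazilin here, so a difference between the compounds cannot be tested for them, and absence does not show that brazilin left them unchanged. Their median absolute log2 ratio with acetylated brazilin was 0.59, against 0.72 for the genes in both tables. The authors' fold changes lie a median of 0.09 on the log2 scale below the ratios of FPKM means in the brazilin table and 0.01 below them in the acetylated table. The part of this offset in the count of absent rises was not tested. Among the 106 members with an absolute deposited log2 fold change of at least 0.6, 49 were absent (46.2%).

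TKT, TNFSF18, NQO2 and POR, described above, were among the absent rises with the smallest q-values. PPDPF rose from 91.3 to 146 FPKM (q = 2.78e-19), RTL8C, a gene derived from a retrotransposon, from 83.5 to 123 FPKM (q = 1.39e-14), and UBALD2 from 48.1 to 68.8 FPKM (q = 3.33e-12). POLR2J, a subunit of RNA polymerase II, rose from 90.3 to 129 FPKM (q = 6.12e-12) and its near-identical relative POLR2J2 from 4.31 to 6.82 FPKM. LOC101060341, an uncharacterized gene ID, rose from 18.6 to 32.4 FPKM (q = 7.31e-14). The largest absent rises without a mean at 0.01 FPKM were those of C10orf90, OR7E24 and ZFPM1. IL1A, IL1B, CEMIP, ELF3, GEM, CREBRF and SLC5A3 were the absent falls with the smallest q-values, followed by CFB, CHML, which encodes a Rab escort protein (4.01 and 2.56 FPKM), NRP2, MAGED4B and ZNF114. NRF2 targets absent from the brazilin table include TKT, SLC48A1 and PIR, which were higher, and AKR1C1, which was lower. GEM and TNFRSF9 were absent from the brazilin table and present in that of methylated brazilin, GEM at 34.7 FPKM and TNFRSF9 at 0.825 FPKM. CCL26, CST1 and TXNIP were listed for all 3 compounds, with 15.2, 66.9 and 119 FPKM for the methylated one. These comparisons share the untreated samples, so they are not independent of each other.

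**Figure D4:**
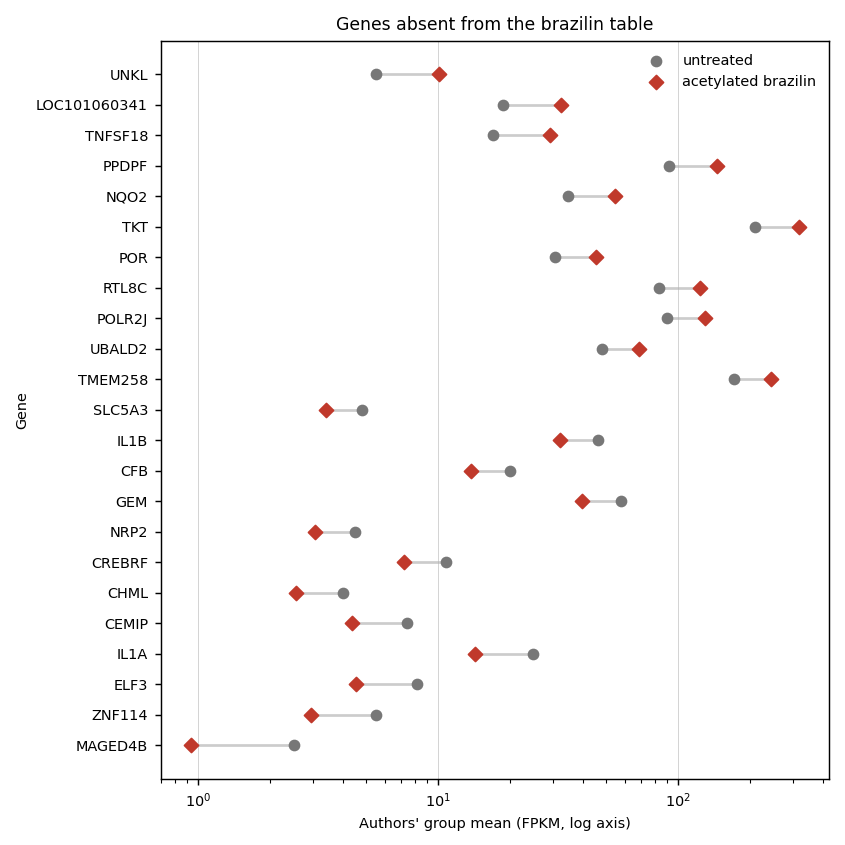
For 11 higher and 12 lower genes with small q-values among those absent from the brazilin table, the authors' mean FPKM on a log axis is shown in untreated cells (grey circles) and with acetylated brazilin (red diamonds). MAGED4B, at 2.52 and 0.935 FPKM, has the widest gap between both groups.

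For the 84 genes in both tables the deposited fold changes of the 2 compounds were compared at the same dose and time. The test set the difference against errors bounded from the q-values, two-sided with a normal reference and Benjamini-Hochberg adjustment over the 84 genes, and it took the errors of both fold changes as independent although they share the untreated samples. The difference passed an adjusted p of 0.05 for 38 genes (45.2%), 28 with a higher and 10 with a lower fold change for acetylated brazilin. Both sides of this split include genes whose FPKM ratios had opposite signs for the 2 compounds. All 10 genes of that kind, described below, are among the 38, and their selection fixed small p-values in advance. The deposited fold changes lie a median of 0.09 below the log2 ratios of FPKM means for brazilin and 0.01 below them for acetylated brazilin. This offset moves the differences upward, and its part in the split of 28 and 10 genes was not tested. FTH1 rose more with acetylated brazilin, at 8725 FPKM against 5819 FPKM with brazilin (difference in log2 fold change 0.67, interval 0.55 to 0.79, adjusted p = 9.77e-27). GCLM also rose more, at 37.5 and 31.2 FPKM (difference 0.34, interval 0.17 to 0.52, adjusted p = 4.39e-04). For HMOX1, at 424 and 516 FPKM, the difference was -0.20 with an interval of -0.60 to 0.20 (adjusted p = 0.496). FTL had 5501 and 6385 FPKM (difference -0.12, interval -0.26 to 0.01) and FBXO30 18.5 and 18.8 FPKM (difference 0.06, interval -0.15 to 0.26). Neither passed, and these intervals do not exclude small differences. The deposited fold changes of FTL were 0.60 with acetylated brazilin and 0.72 with brazilin, but its log2 ratios of FPKM means were 0.59 and 0.80. The part of the offset in FTL not passing was not tested. TXNIP was lower with acetylated brazilin than with brazilin, at 136 and 167 FPKM (difference -0.21, interval -0.35 to -0.07, adjusted p = 0.0073).

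Several genes fell less with the acetylated compound. ITGA1, at 21.1 FPKM with acetylated brazilin, was at 5.75 FPKM with brazilin (difference 1.95, adjusted p = 5.50e-40), and LCN2 at 413 and 231 FPKM (difference 0.93, adjusted p = 1.04e-10). DHRS3 had 12.2 and 10.2 FPKM (difference 0.25, interval -0.01 to 0.52, adjusted p = 0.113) and TIMP3 34.5 and 34.1 FPKM (difference 0.09, interval -0.06 to 0.24), and neither passed. OLAH, at 2.64 and 0.765 FPKM, differed by 1.86 (adjusted p = 7.81e-06), and MTRNR2L2, at 1522 and 772 FPKM, by 1.07 (adjusted p = 1.77e-53). Among rises, TRIML2 was lower with acetylated brazilin, at 14.4 FPKM, than with brazilin, at 38.4 FPKM (difference -1.34, adjusted p = 9.25e-16). CH25H had 3.08 and 6.21 FPKM (difference -0.93, adjusted p = 0.0327). For CCL26 the interval of -0.76 to 0.33 is wide.

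The FPKM ratios of 10 shared genes had opposite signs for the 2 compounds. TFPI2 was at 21.1 FPKM with acetylated brazilin and at 61 FPKM with brazilin, against 30.5 FPKM in untreated cells (difference in log2 fold change -1.46, adjusted p = 8.11e-41). RGS2 was at 4.08 and 12.5 FPKM, RGS4 at 0.645 and 2.03 FPKM, RELN at 0.2 and 1.24 FPKM and ATP5MK at 172 and 428 FPKM, all lower with the acetylated and higher with the unmodified compound than in untreated cells. The reverse held for SEL1L3 at 10.2 and 4.2 FPKM, CCDC163 at 7.21 and 2.88 FPKM, SLC22A18 at 11 and 4.96 FPKM, SLC22A31 at 3.42 and 0.735 FPKM and TMEM8B at 1.65 and 0.89 FPKM. Adjusted p-values of the difference, from the same test, ranged from 8.11e-41 for TFPI2 to 0.00656 for TMEM8B. All 10 genes had passed the authors' limits for both compounds with opposite signs. That selection fixed small p-values in advance, so they add no support to the differences.

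**Figure D5:**
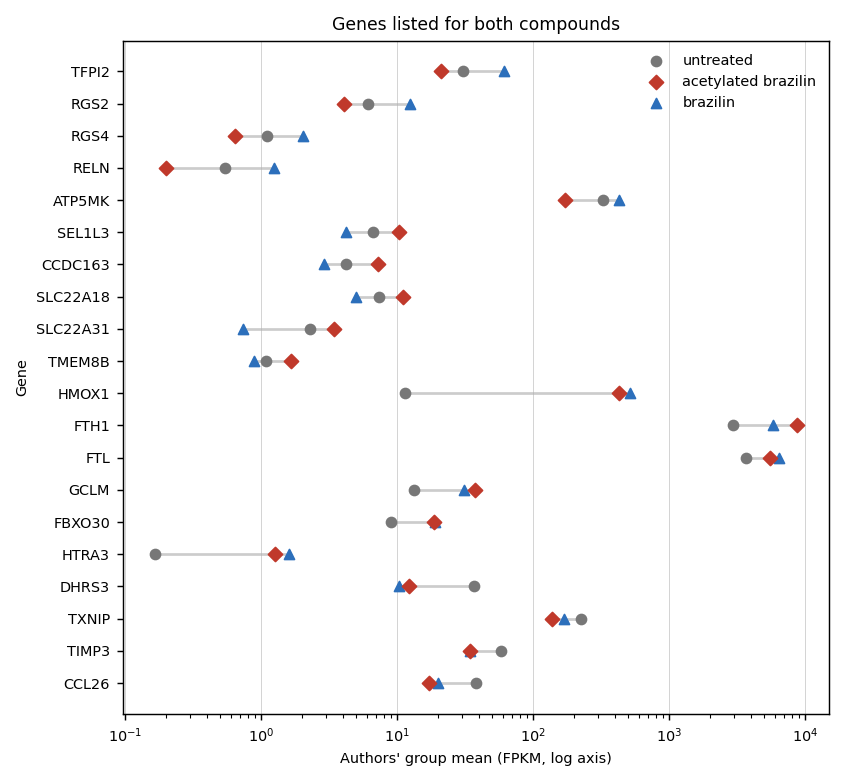
The authors' mean FPKM on a log axis is shown for 20 genes listed for both compounds, in untreated cells (grey circles), with acetylated brazilin (red diamonds) and with brazilin (blue triangles). In the upper 10 genes the untreated mean lies between both treated means, and in the lower 10, HMOX1 to CCL26, both treated means lie on the same side of it.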

How the data were processed

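RNA of MDA-MB-231 cells was sequenced in 8 samples, 2 per group, and the authors deposited 1 table per compound with genes they call changed. The deposited columns hold a q-value, a log2 fold change and group means in FPKM, per the file headers, and no value per sample, so depth per sample is unknown. DESeq2, RSEM, Bowtie, StringTie and HISAT appear in the submitters' processing notes, as do the builds GRCh38, hg38 and mm10, all without role or order. How strand and multiply mapping reads were handled is not known.

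The log2 ratio of the treated to the untreated FPKM mean was computed for all 193 genes without a pseudocount. A standard error was taken as the deposited log2 fold change divided by the normal quantile of its q-value, read as two-sided, with q-values listed at 0 set to 1e-300 (HMOX1 and FTH1 for acetylated, HMOX1, ITGA1 and MTRNR2L2 for unmodified brazilin). Fold changes for acetylated and unmodified brazilin were compared over the 84 genes in both tables, with Benjamini-Hochberg adjustment. Per-sample tests were planned where files allowed them and could not be run.

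Transcripts and coordinates came from GENCODE release 29, using the transcript with the longest coding sequence of each gene, and names and promoters from RefSeq GRCh38.p14. Near-identical copies had coding sequences with at least 98% identity over 80% of the length (BLAST+ 2.17.0), and overlaps of at least 100 exon bases were counted with bedtools 2.31.1. Computation used Python 3.11.15, pandas 2.3.3, numpy 2.4.6, scipy 1.17.1, statsmodels 0.14.6 and matplotlib 3.10.9. The difference test was run on simulated data with independent errors and no limit on the fold change. The real fold changes share untreated samples and passed such a limit, so that check cannot show how the test behaves on them. Members and gene lists were chosen with earlier results of these data known.

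Values are given for the 15 largest rises and falls whose larger mean reached 1 FPKM and whose smaller mean exceeded 0.01 FPKM, members of lists with at least 3 listed genes, the 12 rises and 12 falls with the smallest q-values among genes absent from the brazilin table, genes with a mean at 0.01 FPKM and genes with opposite signs for the 2 compounds. Other members were named by function after their values were seen, and a few that these rules cover are not reported here. Alternatives were other pseudocounts, the deposited fold change, stricter q-values, a minimum of 1 FPKM and matching by symbol.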

Additional observations from a re-analysis of the deposited data

How the results depend on the processing

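No paired analysis was possible because the tables hold group means only, and for the same reason no sample could be left out in turn. All 193 genes had the same sign by FPKM ratio and by deposited fold change. With q-values under 0.001, 64 higher genes remained of 120 and 50 lower genes of 73. Genes at least 2-fold higher numbered 12, but 4 with a pseudocount of 1 FPKM and 7 with at least 1 FPKM in the mean of both groups. Genes at least 2-fold lower numbered 10, but 3 with that pseudocount, 5 with that minimum and 5 without near-identical copies. Leaving out copies or overlapping genes was chosen after seeing the data, as was a minimum absolute deposited log2 fold change of 0.6, under which the genes absent from the brazilin table fell from 109 to 49, of which 37 were higher and 12 lower. The number of genes that differed between compounds was 38, the 10 genes with opposite signs included. It was 45 with a covariance for the shared untreated samples and 34 with FPKM ratios, an alternative also chosen after seeing the data. The stricter limits hold fewer genes by construction, and a pseudocount shrinks the ratios of low genes. Unknown depth and 2 samples per group limit what could be listed, most of all for the genes under 1 FPKM.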
